A study of Mus musculus with 18 samples.

Results

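The genes described here encode the constitutive proteasome and the proteins that assemble or activate it, in macrophages grown from mouse bone marrow. They were taken by name: every gene of the deposited table whose GENCODE M21 symbol starts with Psma, Psmb, Psmc, Psmd, Psme, Psmf or Psmg, without Psmb8, Psmb9 and Psmb10 and without pseudogenes. The rule gave 43 of the 11164 genes of the table, from 47 symbols that fit it in the annotation. Psma8, Psmb11, Psmg4 and Psme2b were not analysed here. The 43 were 7 subunits of the outer rings of the barrel-shaped core (Psma), 7 of its inner rings (Psmb), 6 ATPases (Psmc) and 11 non-ATPase subunits (Psmd) of the regulatory particle, 3 chaperones of that particle's base (Psmd5, Psmd9, Psmd10), 4 activators (Psme), 1 inhibitor (Psmf1), 3 chaperones of the core (Psmg) and 1 gene that only shares the prefix. That gene, Psmc3ip, encodes a partner of the meiotic recombinases and is no subunit of the proteasome.

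The proteasome degrades proteins that carry ubiquitin chains. Its core, the 20S particle, is a barrel of stacked rings: the alpha subunits form the gate, and the beta subunits carry the cutting sites on the inside. The 19S regulatory particle recognises the ubiquitin chain, removes it, unfolds the substrate with its ring of ATPases and opens the gate. In macrophages given inflammatory stimuli, catalytic beta subunits of newly made cores are exchanged for those of the immunoproteasome, and the activator made of Psme1 and Psme2 products can take the place of a regulatory particle.

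The cells came from mice lacking BAFF (BAFF KO), from mice lacking APRIL (APRIL KO) and from wild-type mice (WT), all on the C57BL/6J strain. BAFF and APRIL are secreted relatives of tumour necrosis factor that sustain B cells and plasma cells. Cells received lipopolysaccharide (LPS, a component of the bacterial outer membrane) at 10 ng/ml for 4 h or were left unstimulated, and the labels of every group also carry day 16 of gestation. The series asks how BAFF and APRIL act in preterm birth brought on by inflammation. There were 2 LPS libraries in each genotype (17 and 18 in BAFF KO, 20 and 21 in APRIL KO, 14 and 15 in WT) and 1 unstimulated library in each (16, 19 and 13 in that order of genotypes). Which tissues or cells lack the cytokine, how the alleles were made and whether libraries came from separate animals are not stated, so the p-values rest on how far these libraries differ from each other, a spread that may be technical.

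Each library held 5121833 to 6020780 reads in listed genes. Tnfsf13, the gene for APRIL, had 0 reads in the 3 APRIL KO libraries and 119 to 486 in the others, and the gene for BAFF was not analysed here. All 8 macrophage markers were listed, with a summed level of 4527 to 5211 RPKM under LPS and 6904 to 7603 RPKM in unstimulated cells. RPKM (reads scaled to gene length and sequencing depth) is relative to the total of the library, and after LPS the median of the 9934 genes tested lay 0.44 below unstimulated cells on the log2 scale. Directions are therefore also given after median ratio scaling, which brought that median to -0.02, and levels of different genes are compared only in RPKM. Differences are on the log2(RPKM + 1) scale, which understates those of low genes, and "called" means a Benjamini-Hochberg adjusted p below 0.05 in limma over all 9934 genes. All 43 proteasome genes passed the filter on low values.

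The stretches upstream of genes on which the results below turn are shown here, from RefSeq for build GRCm38.p6, 5′ to 3′ on the gene's own strand, from 250 bases before the start of transcription to 50 after it. Of the 43 genes, 36 had such windows (39 windows). Psma6, whose level under LPS set BAFF KO cells apart, had a window at chr12:55383972-55384271 on the plus strand and another at chr12:55398575-55398874 for a start further downstream. Capitals in the Psma6 windows mark CCAAT in either orientation. It stood in reverse 136 bases before the first start and forward 29 bases before it, and not at all in the downstream window.
Psma6 first start: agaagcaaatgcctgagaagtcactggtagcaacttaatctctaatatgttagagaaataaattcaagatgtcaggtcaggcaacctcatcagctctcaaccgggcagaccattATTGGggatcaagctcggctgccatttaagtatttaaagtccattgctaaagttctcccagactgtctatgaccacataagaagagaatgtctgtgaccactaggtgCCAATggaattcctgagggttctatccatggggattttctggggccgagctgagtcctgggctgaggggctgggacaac
Psma6 downstream start: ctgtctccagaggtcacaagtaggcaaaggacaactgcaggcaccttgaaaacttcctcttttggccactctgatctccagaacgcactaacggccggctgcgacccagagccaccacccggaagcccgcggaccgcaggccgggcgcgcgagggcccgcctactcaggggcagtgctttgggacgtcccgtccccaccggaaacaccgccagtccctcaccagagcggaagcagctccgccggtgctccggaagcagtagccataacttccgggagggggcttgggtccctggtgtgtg

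Psme1 and Psme2, whose levels rose most, face each other on chromosome 14. Psme1 lies on the plus strand (gene 55578123 to 55581529) and Psme2 on the minus strand (gene 55587441 to 55591113). The Psme1 window lies at chr14:55578244-55578543. All of it falls inside the gene as given by GENCODE, since the RefSeq start used for the window lies further downstream. Psme2 has a window at chr14:55591052-55591351 and another, for a start further downstream, at chr14:55590972-55591271. Capitals mark GAAANNGAA, the core of the interferon-stimulated response element, in either orientation. The Psme1 window held it once, in reverse, starting 11 bases past the start, and neither Psme2 window held it. The first Psme2 window is printed, since both overlap.
Psme1: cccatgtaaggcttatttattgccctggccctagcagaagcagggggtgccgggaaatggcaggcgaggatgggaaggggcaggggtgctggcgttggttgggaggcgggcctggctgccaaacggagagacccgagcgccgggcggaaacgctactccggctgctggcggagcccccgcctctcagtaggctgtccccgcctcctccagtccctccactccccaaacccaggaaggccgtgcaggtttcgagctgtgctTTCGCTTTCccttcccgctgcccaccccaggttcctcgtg
Psme2: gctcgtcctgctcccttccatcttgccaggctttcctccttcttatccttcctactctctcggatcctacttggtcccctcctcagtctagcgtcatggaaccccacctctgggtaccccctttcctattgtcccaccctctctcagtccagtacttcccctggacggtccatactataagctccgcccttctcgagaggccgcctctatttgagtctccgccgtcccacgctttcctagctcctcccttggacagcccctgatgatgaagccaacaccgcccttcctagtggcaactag

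Psmb6 and Psmb5 are shown because these catalytic subunits were called in opposite directions with LPS on the deposited scale (after median ratio scaling the value of Psmb5 was 0.03). Their windows lie at chr11:70525107-70525406 on the plus strand and chr14:54617946-54618245 on the minus strand. Capitals mark TGACNNNGC, the core of the antioxidant response element through which Nfe2l1 is known to raise subunit genes. Psmb6 held it 9 bases before the start and Psmb5 47 bases before it, both forward.
Psmb6: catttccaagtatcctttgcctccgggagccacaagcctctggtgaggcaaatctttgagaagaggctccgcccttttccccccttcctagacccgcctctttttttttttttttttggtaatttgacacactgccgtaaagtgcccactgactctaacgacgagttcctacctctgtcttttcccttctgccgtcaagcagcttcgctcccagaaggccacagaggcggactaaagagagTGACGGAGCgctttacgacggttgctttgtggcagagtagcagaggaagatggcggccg
Psmb5: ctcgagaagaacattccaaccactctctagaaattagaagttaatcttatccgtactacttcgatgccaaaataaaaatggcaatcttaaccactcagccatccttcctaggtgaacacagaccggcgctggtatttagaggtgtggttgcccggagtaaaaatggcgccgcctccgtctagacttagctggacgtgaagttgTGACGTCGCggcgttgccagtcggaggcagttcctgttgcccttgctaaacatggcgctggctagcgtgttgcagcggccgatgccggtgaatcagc

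Over all proteasome windows, 6 of 39 held TGACNNNGC (15.4%, against 12.4% of all 32851 windows), in Psmb5, Psmb6, Psmc6, Psmd12, Psmd9 and Psme4. CCAAT stood in 13 windows (33.3%, against 37.4% of all). GAAANNGAA stood in 6 (15.4%, against 8.56%), in Psmb3, Psmb4, Psmc2, Psmd4, Psmd9 and Psme1. TTCNNNGAA, the core of the gamma-activated site, stood in 2 (5.13%, against 8.30%), in Psmd2 and Psmg1. Both strands were searched with overlaps allowed. A match is a run of letters and was not tested as a binding site.

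With LPS, genes of the proteasome changed in both directions. Averaged over the 3 genotypes, 12 of the 43 were called higher and 23 lower, with 8 not called, against 18.1% higher and 62.1% lower among all genes tested. Their median change was -0.25, against -0.44 for all genes. After median ratio scaling 24 were called higher and 4 lower, against 30.8% and 30.3% of all genes, with a median of 0.27 against -0.02. On the deposited scale the 4 highest rises were in the activators Psme2 and Psme1, the base chaperone Psmd10 and the outer-ring subunit Psma5, and the deepest falls in the core chaperones Psmg1 and Psmg2. In whole-culture RNA, fewer cells of a type and less RNA per cell cannot be told apart. Neutrophil markers fell with LPS as well: all 7 of those tested were called lower (6 lower and 1 higher after median ratio scaling). Their summed level was 1337 to 2687 RPKM with LPS and 2715 to 5736 RPKM without. Camp fell in BAFF KO only (65.5 and 57.1 RPKM with LPS, 113 RPKM in library 16). It had 54.3 and 57.3 against 52.5 RPKM in APRIL KO and 54.2 and 67.2 against 54.2 RPKM in WT. The part of the neutrophil markers in the changes of the proteasome genes was not tested.

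**Figure D1:**
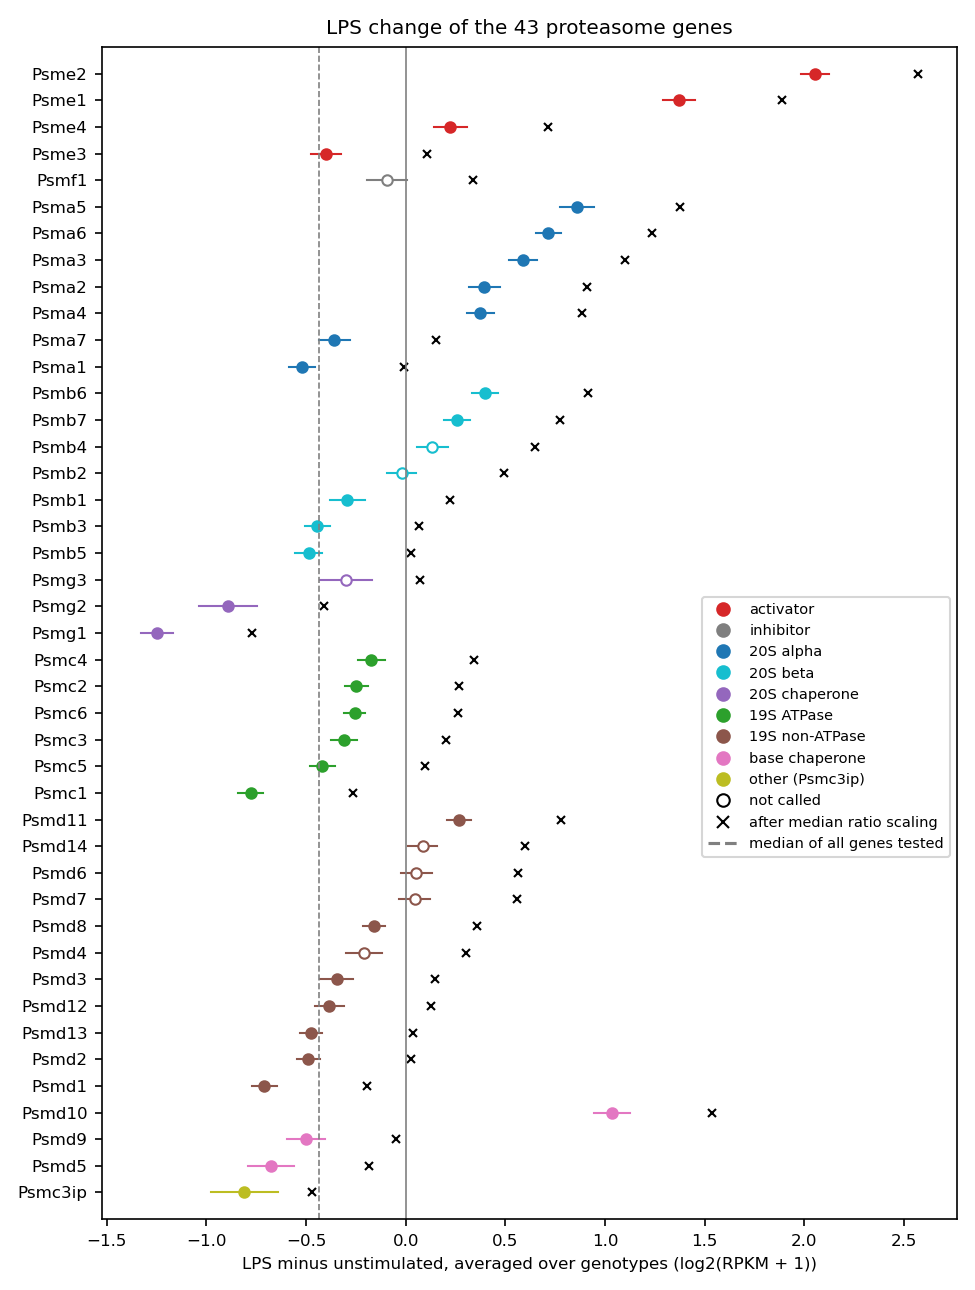
Change with LPS of each of the 43 proteasome genes, grouped by role, as log2 of RPKM + 1 averaged over the 3 genotypes (horizontal axis), with bars of 1 SE; filled points were called, open points were not, and crosses give the value after median ratio scaling. Psme2 (2.05) and Psme1 (1.37) lie farthest right and Psmg1 (-1.25) farthest left, the dashed line marks the median of all genes (-0.44), and for 19 genes, among them all ATPases except Psmc1, the cross lies on the other side of 0 from the point.

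The activators cap the core and open its gate. Psme2, which with Psme1 forms the interferon-responsive PA28 ring, had 1012 and 887 RPKM in the BAFF KO LPS libraries, 895 and 888 RPKM in APRIL KO LPS and 942 and 1045 RPKM in WT LPS, against 274, 198 and 214 RPKM in unstimulated BAFF KO, APRIL KO and WT cells. Every LPS library stood above every unstimulated library. Psme2 averaged 944 ± 68.7 RPKM with LPS (SD, n = 6) and 229 ± 40.1 RPKM without (n = 3), a 4.13-fold ratio of means and a change of 2.05 ± 0.07 (SE, adjusted p = 1.3e-07). Psme2b, a near copy, was not analysed here, and how the authors' counting shared reads between such copies is not given.

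Psme1, its partner, had 368 and 323 RPKM in BAFF KO LPS, 357 and 314 RPKM in APRIL KO LPS and 331 and 386 RPKM in WT LPS, against 155, 119 and 127 RPKM in unstimulated BAFF KO, APRIL KO and WT cells. The groups did not overlap, and the change was 1.37 ± 0.08 (adjusted p = 3.0e-06). Within each library, where scaling cancels, the level of Psme2 was 2.51 to 2.85 times that of Psme1 with LPS and 1.67 to 1.77 times without. The PA28 pair did not keep a fixed ratio.

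Psme3 encodes the nuclear member of the same family, which works alone and is not raised by interferon. Its level was 40.9 and 33.7 RPKM in BAFF KO LPS, 40.9 and 40.4 RPKM in APRIL KO LPS and 40.8 and 44.3 RPKM in WT LPS, against 44.5, 60.8 and 55.5 RPKM in unstimulated BAFF KO, APRIL KO and WT cells. On the deposited scale it fell by 0.40 (adjusted p = 0.0017), and after median ratio scaling the sign turned to 0.11. The ratio of Psme1 to Psme3 within a library was 7.76 to 9.58 with LPS, against 1.95 to 3.48 without, so these relatives moved apart whatever the scaling.

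Psme4 encodes PA200, a large single-chain cap. It had 21.4 and 22.2 RPKM in BAFF KO LPS, 17.7 and 21.5 RPKM in APRIL KO LPS and 17.9 and 17.1 RPKM in WT LPS, against 13.7, 18.5 and 17.9 RPKM in unstimulated BAFF KO, APRIL KO and WT cells. LPS and unstimulated libraries overlapped. The averaged change of 0.22 was called (adjusted p = 0.037), but without library 16, the unstimulated BAFF KO library, it was 0.02 (adjusted p = 0.89), and without library 13 it was 0.35. Leaving out library 14, 15, 17, 18 or 21 also ended the call.

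Psmf1, which encodes the inhibitor PI31, had 5.42 and 5.17 RPKM in BAFF KO LPS, 4.05 and 4.76 RPKM in APRIL KO LPS and 4.68 and 4.87 RPKM in WT LPS, against 5.20, 5.20 and 5.19 RPKM in the unstimulated libraries of BAFF KO, APRIL KO and WT. The groups overlapped and its change of -0.09 was not called (adjusted p = 0.41). After median ratio scaling the value was 0.33 and was called higher (adjusted p = 0.022).

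**Figure D2:**
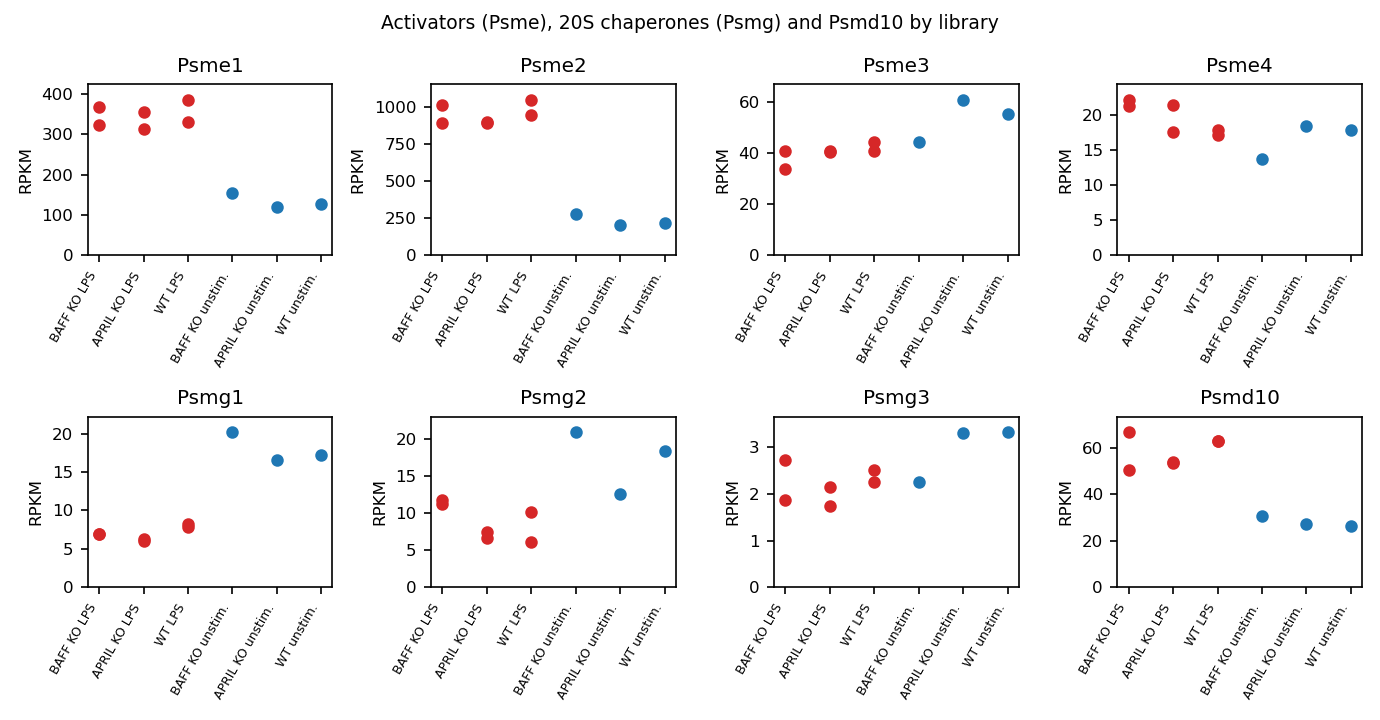
RPKM (vertical axis) of the 4 activators, the 3 core chaperones and Psmd10 in each library, with LPS in red and unstimulated in blue, each point 1 library and genotypes side by side. Psme2, Psme1 and Psmd10 lie higher in every LPS library than in any unstimulated one, and Psmg1 and Psmg2 lower.

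Of the 3 core chaperones, 2 were called lower with LPS and 0 higher, near the share of all genes called lower (62.1%, with 18.1% higher). Psmg1 and Psmg2 encode PAC1 and PAC2, the pair on which the ring of alpha subunits is built. Psmg1 had 6.88 and 6.93 RPKM in BAFF KO LPS, 6.00 and 6.27 RPKM in APRIL KO LPS and 7.88 and 8.16 RPKM in WT LPS, against 20.2, 16.6 and 17.2 RPKM in unstimulated BAFF KO, APRIL KO and WT cells. No LPS library reached any unstimulated one. It averaged 7.02 ± 0.857 RPKM with LPS (SD, n = 6) and 18.01 ± 1.91 RPKM without (n = 3), a change of -1.25 ± 0.08 (adjusted p = 5.3e-06), and it stayed called lower after median ratio scaling (-0.77, adjusted p = 9.0e-05). Its counts ran from 41 to 162 reads per library.

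Psmg2 had 11.3 and 11.7 RPKM in BAFF KO LPS, 7.48 and 6.69 RPKM in APRIL KO LPS and 6.08 and 10.2 RPKM in WT LPS, against 20.9, 12.5 and 18.4 RPKM in unstimulated BAFF KO, APRIL KO and WT cells. The highest LPS library, of BAFF KO, came close to the lowest unstimulated one, of APRIL KO. The fall of 0.89 was called (SE 0.14, adjusted p = 6.7e-04), also after median ratio scaling (-0.41, adjusted p = 0.040). Psmg3, which works with Psmg4 on the same ring, lay at 1.73 to 2.74 RPKM with LPS and 2.26 to 3.32 RPKM without, on 21 to 51 reads per library. Its change of -0.30 was not called (adjusted p = 0.060) and had the other sign, 0.07, after median ratio scaling, while it was called lower without library 16 (-0.45) or 18 (-0.36) and stood at -0.17 without library 19.

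The chaperones of the regulatory particle's base, which bind ATPases until the ring is complete, did not move together. Psmd10 encodes gankyrin, which holds the Psmc4 product. It had 66.7 and 50.6 RPKM in BAFF KO LPS, 53.9 and 53.6 RPKM in APRIL KO LPS and 63.1 and 62.8 RPKM in WT LPS, against 30.5, 27.0 and 26.3 RPKM in unstimulated BAFF KO, APRIL KO and WT cells. The groups lay wide apart. Psmd10 averaged 58.5 ± 6.55 RPKM with LPS (SD, n = 6) and 27.9 ± 2.26 RPKM without (n = 3), a 2.09-fold ratio of means and a change of 1.03 ± 0.09 (adjusted p = 2.4e-05).

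Psmd5 and Psmd9 encode the chaperones of other ATPases. Psmd5 lay at 10.2 to 17.99 RPKM with LPS and 20.99 to 23.4 RPKM without, and its fall of 0.68 was called (adjusted p = 9.1e-04) on the deposited scale but not after median ratio scaling (-0.18, adjusted p = 0.20). Psmd9 lay at 4.54 to 5.99 RPKM with LPS and 6.78 to 9.54 RPKM without, and its fall of 0.50 (adjusted p = 0.0015) shrank to -0.05 after that scaling. Psmd10 alone of these chaperones was called higher, under each scaling. Psmd9 shares 1849 exon bases with Gm26745 on the other strand, and whether the counting used strand is not given.

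All 7 genes of the outer ring were called, 5 higher and 2 lower, with a median of 0.39 (all genes: 18.1% higher and 62.1% lower, median -0.44). Psma5 had 300.3 and 255 RPKM in BAFF KO LPS, 267 and 245 RPKM in APRIL KO LPS and 268 and 319.8 RPKM in WT LPS, against 165, 139 and 150.3 RPKM in unstimulated BAFF KO, APRIL KO and WT cells. Its libraries did not overlap, and it rose by 0.86 ± 0.08 (adjusted p = 4.4e-05). Psma6 rose by 0.72 ± 0.06 (adjusted p = 2.6e-05), though not in every genotype, as described further on.

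Psma3 rose by 0.59 (141 to 174 RPKM with LPS and 91.2 to 118 RPKM without). Psma2 rose by 0.39 (172 to 237 RPKM with LPS and 130.4 to 189 RPKM without) and Psma4 by 0.37 (70.4 to 91.6 RPKM with LPS and 53.3 to 68.3 RPKM without), and the Psma2 call was lost after quantile normalization (0.17, adjusted p = 0.054). Psma1, at 70.3 to 93.6 RPKM with LPS and 104 to 122 RPKM without, fell by 0.52 on the deposited scale, a value that was -0.01 and not called after median ratio scaling. Psma7, at 47.8 to 60.1 RPKM with LPS and 62.9 to 78.7 RPKM without, fell by 0.36, which turned to 0.15 after that scaling. These subunits stand in equal number in each ring, and with LPS their levels ran from 47.8 RPKM (Psma7) to 425 RPKM (Psma6). That gap rests partly on the gene lengths in the RPKM, 3066 bases for Psma7 and 1226 bases for Psma6. Over all libraries, with and without LPS, Psma7 had 812 to 1382 reads and Psma6 1230 to 2729.

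Of the inner ring, 2 genes were called higher and 3 lower (all genes: 18.1% and 62.1%). The catalytic subunits are Psmb6 (the caspase-like site), Psmb7 (the trypsin-like site) and Psmb5 (the chymotrypsin-like site). Psmb6 had 243 and 220.3 RPKM in BAFF KO LPS, 222 and 199 RPKM in APRIL KO LPS and 248 and 264 RPKM in WT LPS, against 212, 138 and 185 RPKM in unstimulated BAFF KO, APRIL KO and WT cells. The groups overlapped through the unstimulated BAFF KO library, and the change of 0.40 was called (SE 0.07, adjusted p = 7.5e-04).

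Psmb7 had 208 and 181 RPKM in BAFF KO LPS, 191 and 193 RPKM in APRIL KO LPS and 238 and 224 RPKM in WT LPS, against 177, 149.6 and 190.2 RPKM in unstimulated BAFF KO, APRIL KO and WT cells. The groups overlapped. Its rise of 0.26 (adjusted p = 0.0065) was 0.01 and not called after quantile normalization and 0.20 and not called with the higher index column of each library alone, and 405 of its exon bases are shared with Nek6 on the other strand. Psmb5 had 77.6 and 66.8 RPKM in BAFF KO LPS, 61.6 and 62.0 RPKM in APRIL KO LPS and 70.9 and 77.02 RPKM in WT LPS, against 138, 72.9 and 90.9 RPKM in unstimulated BAFF KO, APRIL KO and WT cells. Again the groups overlapped, here because the unstimulated APRIL KO library was low. Psmb5 fell by 0.49 on the deposited scale (adjusted p = 3.1e-04), after median ratio scaling the value was 0.03, and without library 16 it was -0.26 and still called (adjusted p = 0.021).

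The subunits without a cutting site were Psmb1, Psmb2, Psmb3 and Psmb4. Psmb3, at 33.7 to 50.9 RPKM with LPS and 49.0 to 64.9 RPKM without, fell by 0.44, and Psmb1, at 121 to 191 RPKM with LPS and 162 to 233 RPKM without, by 0.29. Both had the other sign after median ratio scaling (0.07 and 0.22), and without library 16 Psmb3 stood at -0.23 (adjusted p = 0.026) and the Psmb1 call was lost (-0.16, adjusted p = 0.21). Psmb2 (-0.02) and Psmb4 (0.13) were not called, and after median ratio scaling they stood at 0.49 and 0.65. Psmb4 was called higher without library 16 (0.32) or 14 (0.18), and without library 13 or 19 it stood at 0.04 and 0.03.

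In place of Psmb6, Psmb7 and Psmb5, a new core can take up the products of Psmb9, Psmb10 and Psmb8. These immunoproteasome genes are not among the 43, and all 3 were called higher with LPS (2.42, 2.41 and 1.80). The ratio of Psmb8 to Psmb5 within a library was 2.58 to 3.27 with LPS and 0.479 to 0.700 without. Psmb9 to Psmb6 stood at 0.248 to 0.300 with LPS and 0.0532 to 0.0736 without, and Psmb10 to Psmb7 at 1.92 to 2.59 with LPS and 0.454 to 0.623 without. The geometric means of these ratios were 4.95-fold, 4.35-fold and 4.49-fold higher with LPS, and none of the LPS libraries overlapped the unstimulated ones. An exact permutation test, with libraries exchanged regardless of genotype, gave 2-sided p = 0.0238 for each ratio and 0.0238 after adjustment over the 3. That is the smallest that 6 against 3 libraries can give. It follows from the lack of overlap and is no further support, as the genes were chosen with earlier results known. These ratios do not depend on scaling to the library's total.

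**Figure D3:**
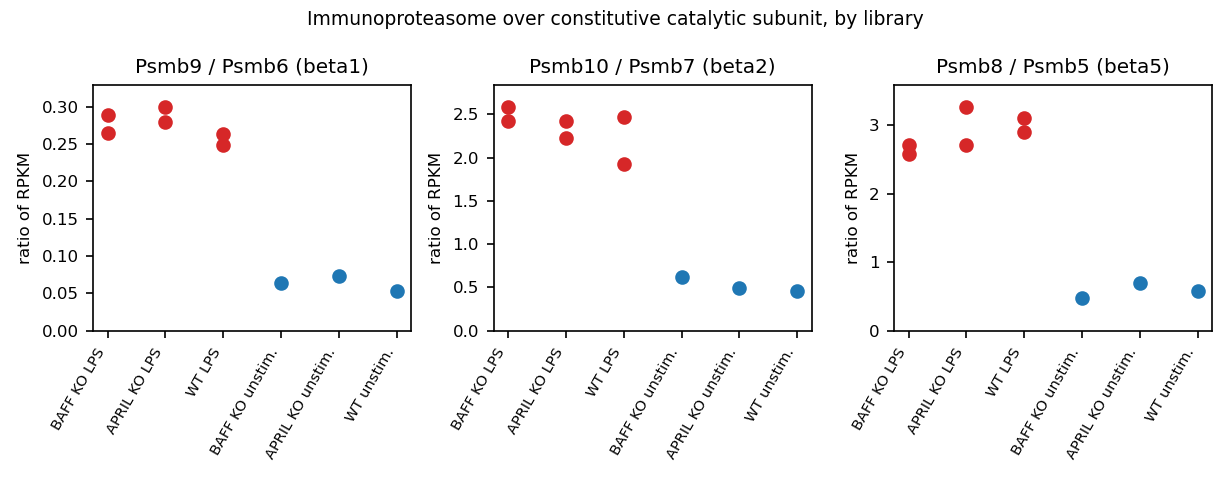
Ratio of each immunoproteasome gene to the constitutive gene it can replace (vertical axis, RPKM over RPKM) in each library, red for LPS and blue for unstimulated. In every LPS library Psmb8 exceeded Psmb5 (2.58 or more) and Psmb10 exceeded Psmb7 (1.92 or more), while in unstimulated libraries both ratios were 0.700 or less, and Psmb9 stayed below Psmb6 in all libraries (0.300 or less).

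The 6 ATPases unfold the substrate and thread it into the core. All 6 were called lower on the deposited scale, with a median of -0.28 (all genes: 62.1% lower, median -0.44). After median ratio scaling 4 were called higher and 1 lower, with a median of 0.23 (all genes: 30.8% and 30.3%, median -0.02). Psmc1 kept its direction. It had 68.5 and 74.4 RPKM in BAFF KO LPS, 72.4 and 75.5 RPKM in APRIL KO LPS and 83.1 and 90.2 RPKM in WT LPS, against 143, 119 and 138 RPKM in unstimulated BAFF KO, APRIL KO and WT cells. These groups lay apart, and Psmc1 fell by 0.78 (SE 0.06, adjusted p = 1.4e-05), or by 0.26 after median ratio scaling (adjusted p = 0.0063).

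The other ATPases fell by 0.17 (Psmc4), 0.25 (Psmc2), 0.26 (Psmc6), 0.31 (Psmc3) and 0.42 (Psmc5) on the deposited scale and had positive values after median ratio scaling, of 0.34, 0.27, 0.26, 0.20 and 0.10 in the same order. Their LPS and unstimulated libraries overlapped. Their levels ran from 61.9 RPKM (Psmc4) to 174 RPKM (Psmc6) with LPS and from 71.0 RPKM (Psmc4) to 204 RPKM (Psmc6) without. Without library 16, Psmc5 stood at -0.24 and was still called, Psmc3 (-0.17) and Psmc4 (-0.08) were no longer called, and the Psmc4 call was also lost without library 15, 17, 18, 19, 20 or 21, while without library 13 it was -0.26.

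Of the 11 non-ATPase subunits, 1 was called higher and 6 lower (all genes: 18.1% and 62.1%). After median ratio scaling 6 were called higher and 1 lower (all genes: 30.8% and 30.3%). Psmd1 and Psmd2 encode the large scaffolds on which ubiquitin receptors and shuttles dock. Psmd1, at 60.4 to 67.4 RPKM with LPS and 103 to 112 RPKM without, fell by 0.71 (adjusted p = 2.4e-05), or by 0.20 after median ratio scaling (adjusted p = 0.028). Psmd2 stood at 110.1 to 126 RPKM with LPS and 153 to 174 RPKM without, and its fall of 0.49 became 0.03 after that scaling. Psmd1 shares 301 exon bases with Gm21972 on its own strand, so reads there cannot be assigned. The same holds for 109 exon bases of Psmb5 (shared with Mir686) and 280 of Psmg3 (shared with Gm26938).

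Psmd11, a scaffold of the lid, was the 1 called higher: 59.9 to 70.3 RPKM with LPS and 53.0 to 54.3 RPKM without, a rise of 0.27 (adjusted p = 0.0038). The lid subunits Psmd13, Psmd12, Psmd3 and Psmd8 fell by 0.48, 0.38, 0.35 and 0.16 on the deposited scale and stood at 0.03, 0.13, 0.15 and 0.36 after median ratio scaling. Without library 14, 16, 19 or 21 the Psmd8 call was lost. Psmd14, the deubiquitinase that frees the ubiquitin chain, its partner Psmd7 and the lid subunit Psmd6 were not called (0.09, 0.04 and 0.05; 0.60, 0.56 and 0.56 and called higher after median ratio scaling), nor was the ubiquitin receptor Psmd4 (-0.21, adjusted p = 0.059). Psmd4 was called lower without library 13 (-0.44) or 15 (-0.27), stood at -0.02 without library 16 and had the opposite sign after median ratio scaling (0.30).

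Core and particle thus differed within libraries. The mean level of the 14 core genes was 1.63 to 1.92 times that of the 17 particle genes in the LPS libraries and 1.17 to 1.34 times in the unstimulated ones. Taken as geometric means, to weigh low genes alike, the ratios were 1.66 to 1.84 with LPS and 1.26 to 1.46 without. With either mean the groups did not overlap, and library-wide scaling cancels out of both.

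Psmc3ip had the lowest mean of the 43 with and without LPS, though Psmg3 lay lower in unstimulated BAFF KO cells. It lay at 0.731 to 1.83 RPKM with LPS and 2.04 to 3.26 RPKM without, on 6 to 32 reads per library. In single libraries it had 1.83 and 0.907 RPKM in BAFF KO LPS, 1.18 and 0.731 RPKM in APRIL KO LPS and 0.952 and 1.53 RPKM in WT LPS, against 3.17, 2.04 and 3.26 RPKM in unstimulated BAFF KO, APRIL KO and WT cells. The groups did not overlap. The fall of 0.81 was called (adjusted p = 0.0026), and after median ratio scaling it was -0.47 (adjusted p = 0.052). It shares 385 exon bases with Mlx on the other strand.

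By genotype, each test set 2 LPS libraries against 1 unstimulated library, which was assumed to vary like the other groups. In BAFF KO 7 of the 43 were called higher and 22 lower (all genes: 16% and 43.8%), in APRIL KO 10 higher and 12 lower (14.4% and 47.8%), and in WT 9 higher and 11 lower (13.7% and 46.7%). The medians were -0.31, -0.20 and -0.10, against -0.40, -0.46 and -0.44 for all genes in BAFF KO, APRIL KO and WT. After median ratio scaling the calls were 15 higher and 7 lower in BAFF KO (all genes: 23.1% and 17.8%), 21 and 1 in APRIL KO (23.7% and 18.1%), and 25 and 1 in WT (23% and 16.9%). Without library 14, 7 genes were called lower in WT.

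Several genes stood out in BAFF KO on the deposited scale. Psma6 changed by 0.08 with LPS in BAFF KO (adjusted p = 0.55), by 1.09 in APRIL KO (adjusted p = 1.5e-04) and by 0.98 in WT (adjusted p = 2.8e-04), and the BAFF KO value was 0.54 and called after median ratio scaling (adjusted p = 0.010) and -0.02 after quantile normalization. Psmb5 fell by 0.93 in BAFF KO and was not called in APRIL KO (-0.24) or WT (-0.29). Psme4 rose by 0.63 in BAFF KO and stood at 0.07 in APRIL KO and -0.03 in WT, where it was not called. Whether such responses differ was tested by the interaction terms below, where limma called none of these genes. The BAFF KO values rest on 1 unstimulated library, 16, with 138 RPKM of Psmb5 and 13.7 RPKM of Psme4. Unstimulated APRIL KO and WT cells had 72.9 and 90.9 RPKM of Psmb5, and 18.5 and 17.9 RPKM of Psme4.

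Under LPS, BAFF KO cells held less Psma6 than the other genotypes. Psma6 encodes a subunit of the outer ring, on chromosome 12 (mm10, 55384222 to 55418454, plus strand). It had 228 and 207 RPKM in BAFF KO LPS and 385 and 365 RPKM in APRIL KO LPS, against 388 and 425 RPKM in WT LPS. Unstimulated cells had 206 (BAFF KO), 175 (APRIL KO) and 206 RPKM (WT). On the deposited scale BAFF KO libraries under LPS thus lay near the unstimulated level and far from the other LPS libraries. After median ratio scaling Psma6 was called higher with LPS in BAFF KO as well, as given above.

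The difference between BAFF KO and WT was -0.90 ± 0.09 (SE, adjusted p = 0.0019), a 1.86-fold lower level, and it was -0.91 after median ratio scaling and -0.76 after quantile normalization. Between BAFF KO and APRIL KO it was -0.78 ± 0.09 (adjusted p = 0.0040). Both comparisons share the BAFF KO libraries. Relative to the geometric mean of the other 6 alpha genes in its own library, Psma6 stood at 1.80 and 1.86 in BAFF KO LPS, 3.41 and 3.34 in APRIL KO LPS and 3.23 and 3.09 in WT LPS, and at 1.78, 1.92 and 2.04 in unstimulated BAFF KO, APRIL KO and WT cells. The other 6 alpha genes differed by -0.21 to -0.08 between BAFF KO and WT under LPS, and none of them was called.

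**Figure D4:**
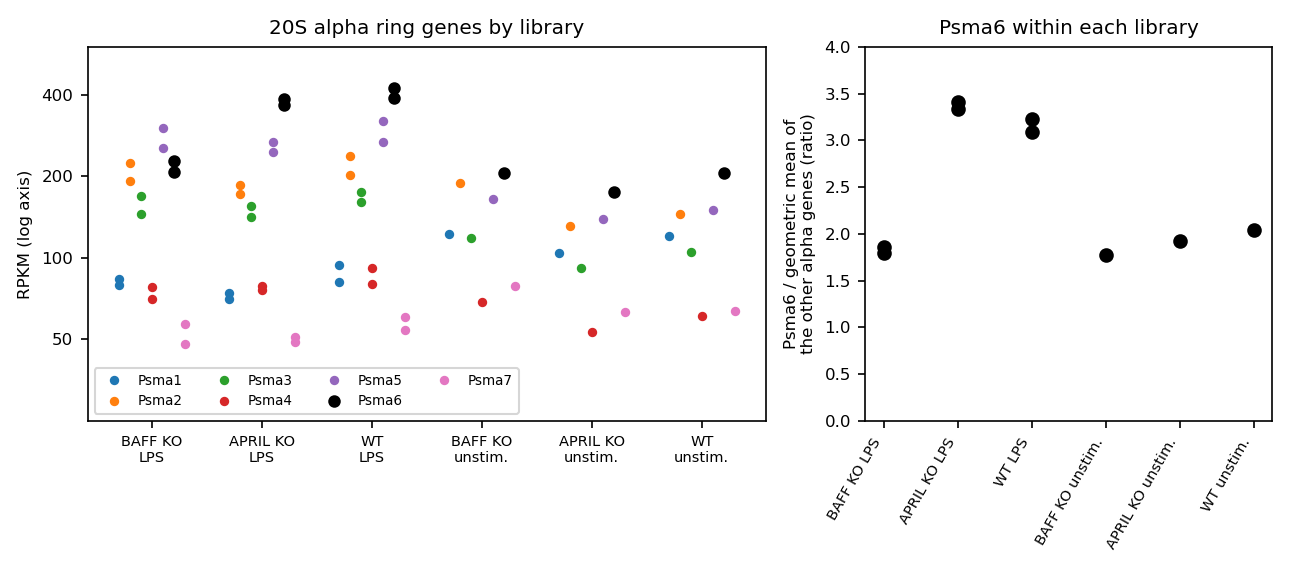
Left, RPKM of the 7 alpha subunit genes in each library on a log axis, with Psma6 in black; right, Psma6 over the geometric mean of the other 6 alpha genes in the same library. In BAFF KO LPS the ratio was 1.80 and 1.86, near the unstimulated libraries (1.78 to 2.04), and in APRIL KO LPS and WT LPS it was 3.09 to 3.41.

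The genes beside Psma6 were looked at after its values were seen. Nfkbia, the next listed gene on the far side (55489410 to 55492647) and a strongly LPS-induced inhibitor of NF-kB, had 1061 and 894 RPKM in BAFF KO LPS and 1091 and 1129 RPKM in WT LPS, a difference of -0.19 that was not called (adjusted p = 0.29). Within 200000 bases, 1700047I17Rik2 (0.26), Srp54c (0.27), Ppp2r3c (-0.01), 1110008L16Rik (0.01) and Ralgapa1 (0.09) were not called between BAFF KO and WT either. The low level in BAFF KO LPS was thus seen for Psma6 and for none of the 6 listed neighbours.

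In all, 2 of the 43 were called lower in BAFF KO than in WT under LPS and 0 higher, against 4.35% lower and 3.99% higher among all genes. The second was Psmb3, a subunit of the inner ring, with 36.3 and 33.7 RPKM in BAFF KO LPS and 47.6 and 50.9 RPKM in WT LPS. Its difference was -0.48 ± 0.09 (adjusted p = 0.017), and APRIL KO LPS libraries had 36.9 and 36.7 RPKM. The Psmb3 call was lost when library 14, 15, 17 or 18 was left out (adjusted p = 0.057 to 0.12). By limma voom on reads Psma6 and Psmb3 were called lower, and so was the lid subunit Psmd12 (-0.39, adjusted p = 0.032). Among all 9934 genes voom called 556 lower and 657 higher in this comparison.

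Most of the other genes lay slightly lower in BAFF KO without being called. Of the 43 differences, 36 were negative, with a median of -0.12 against 0.02 for all genes, and all 14 core genes and all 6 ATPases were among them. At an unadjusted p below 0.05 there were 12, against 2508 of the 9934 genes. Both BAFF KO libraries lay lower than both WT libraries for 21 of the 43 (48.8%, against 25.5% of all genes) and higher for 5 (11.6%, against 29.9%), namely Psmd11, Psmd8, Psme4, Psmf1 and Psmg2.

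**Figure D5:**
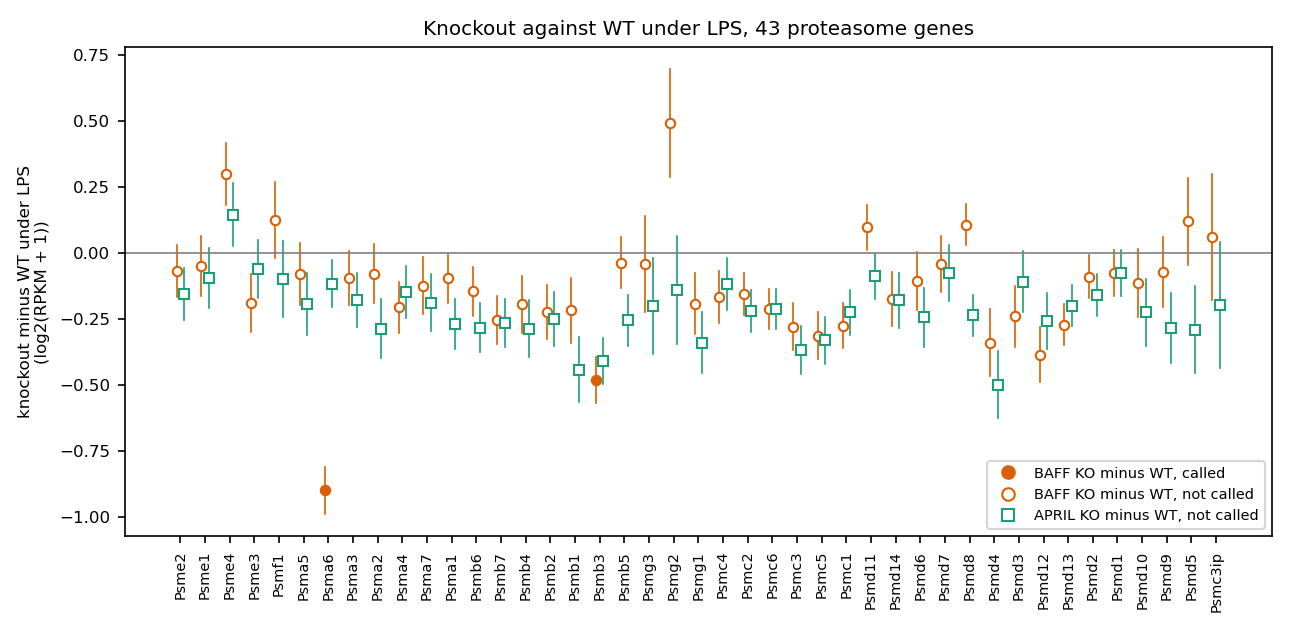
Difference from WT under LPS of each of the 43 genes, as log2 of RPKM + 1 (vertical axis), with orange circles for BAFF KO (filled where called) and green squares for APRIL KO and bars of 1 SE; both share the WT libraries. Psma6 (-0.90) and Psmb3 (-0.48) were called in BAFF KO and no gene was called in APRIL KO, where Psme4 (0.15) was the 1 gene above 0.

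In APRIL KO against WT under LPS none of the 43 was called by limma, higher or lower (all genes: 0.0101% and 0.201%), nor by limma voom on reads. Most differences were negative all the same: 42 of the 43 were negative, with a median of -0.21 against 0.01 for all genes, and Psme4 (0.15) was the exception. At an unadjusted p below 0.05 there were 19, against 1539 of all genes, among them all 7 inner-ring genes. The smallest p belonged to Psmb3 (-0.41 ± 0.09, adjusted p = 0.15), whose library values are given above. Both APRIL KO libraries lay lower than both WT libraries for 32 of the 43 (74.4%, against 22.6% of all genes) and higher for 0 (against 25.4%). Since 2 libraries stood on each side and the genes of a library share its scaling and its cells, these counts describe the libraries and are no test.

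Between BAFF KO and APRIL KO under LPS, 1 of the 43 was called higher and 1 lower (all genes: 2.48% and 3.06%). The lower one was Psma6. The higher one was Psmd8, a lid subunit, with 314 and 317 RPKM in BAFF KO LPS and 255 and 242 RPKM in APRIL KO LPS. Its difference of 0.34 ± 0.08 (adjusted p = 0.048) was not called after median ratio scaling (adjusted p = 0.080) or when any of the 6 LPS libraries was left out. WT LPS libraries, at 285 and 301 RPKM, lay in between.

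The interaction terms asked whether the LPS response itself differed from that of WT. For BAFF KO, 0 of the 43 were called by limma in either direction (all genes: 0.221% each way). An unadjusted p below 0.05 was found for 12, and the count over all genes at that cut is not given here. Limma voom on reads called 4 lower, against 155 lower and 444 higher among all 9934 genes. Psma6 had the smallest p, with a difference in response of -0.89 ± 0.15 (adjusted p = 0.063), or -0.88 by voom (adjusted p = 0.016). The others called by voom were Psmb3 (-0.88, adjusted p = 0.020), the ATPase Psmc5 (-0.70, adjusted p = 0.036) and the ubiquitin receptor Psmd4 (-0.84, adjusted p = 0.039). Of the 43 differences 34 were negative, all 14 core genes among them, with a median of -0.26 against 0.08 for all genes. This median was -0.15 without library 18.

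For APRIL KO, 0 of the 43 were called by limma (all genes: 0% each way) or by voom. At an unadjusted p below 0.05 there was 1, Psmd4, with 49.6 and 46.4 RPKM in APRIL KO LPS and 58.6 RPKM without LPS, against 60.1 and 77.3 RPKM in WT LPS and 57.2 RPKM without. Its 2 WT LPS libraries stood far apart, and the difference in response was -0.53 (adjusted p = 0.998). The median over the 43 was -0.05, against -0.001 for all genes.

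Unstimulated cells had 1 library per genotype, and their differences are given as values, with no test run. BAFF KO exceeded WT in 29 of the 43, with a median of 0.15 against -0.07 for all genes. Both columns of the BAFF KO library lay higher than both WT columns for 22 genes (51.2%, against 22.8% of all) and lower for 8 (18.6%, against 38.2%). The differences ran from -0.41 (Psmg3) to 0.60 (Psmb5), and only Psmb5 passed 1.5-fold, with 138 RPKM in BAFF KO and 90.9 RPKM in WT. The inner ring had a median of 0.30.

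APRIL KO lay lower than WT in 33 of the 43 unstimulated values, with a median of -0.13 against 0.02 for all genes, and in all 14 core genes. Both of its columns lay lower than both WT columns for 25 genes (58.1%, against 24.1% of all) and higher for 2 (4.65%, against 29%), Psmc4 and Psmd11. The differences ran from -0.52 (Psmg2) to 0.20 (Psmd9).

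Single macrophage markers differed between genotypes under LPS, while most of their sum was Lyz2 (2816 to 3649 RPKM). In BAFF KO LPS, Mertk had 47.5 and 54.5 RPKM, against 12.96 and 14.9 RPKM in WT LPS. APRIL KO LPS had 23.2 and 25.8 RPKM. Fcgr1 went the other way, with 77.4 and 71.98 RPKM in BAFF KO LPS, against 138.95 and 143 RPKM in WT LPS. APRIL KO LPS had 132 and 130.02 RPKM. Other macrophage markers differed less, in proportion, between BAFF KO and WT. Markers of other cells differed between the genotypes too. Against WT under LPS, 4.35% of all genes were called lower and 3.99% higher in BAFF KO. In APRIL KO these shares were 0.201% and 0.0101%. Under LPS, 9 skeletal muscle markers summed to 29.7 to 37.7 RPKM in BAFF KO and 19.8 to 49.1 RPKM in APRIL KO, against 178 to 246 RPKM in WT, and of the 7 tested 6 were called lower in BAFF KO and 3 in APRIL KO. The 7 listed neutrophil markers summed to 2304 to 2687 RPKM in BAFF KO LPS and 1580 to 1617 RPKM in APRIL KO LPS, against 1337 to 1691 RPKM in WT LPS, with 5 of 7 called higher in BAFF KO. Unstimulated, they summed to 5736 RPKM in BAFF KO and 2715 RPKM in APRIL KO, against 3054 RPKM in WT. Stromal markers summed to 9.22 to 44.1 RPKM in BAFF KO LPS and 14.8 to 433 RPKM in APRIL KO LPS, against 53.6 to 224 RPKM in WT LPS, and the 4 markers of T or NK cells were not analysed here. The 4 B cell markers summed to 11.2 to 16.8 RPKM in BAFF KO LPS and 26.0 to 29.4 RPKM in APRIL KO LPS, against 23.2 to 26.5 RPKM in WT LPS, with 1 of 4 called lower in BAFF KO. In unstimulated cells muscle markers summed to 14.1 RPKM in BAFF KO and 26.7 RPKM in APRIL KO, against 172 RPKM in WT. Stromal markers there summed to 10.9 RPKM in BAFF KO and 7.54 RPKM in APRIL KO, against 129.7 RPKM in WT. The part of such cells, or of the differences in macrophage markers, in the proteasome differences between genotypes was not tested.

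Around the proteasome, lists of partner genes were read by the same averaged LPS test. Of all genes tested, 18.1% were called higher and 62.1% lower in it, or 30.8% and 30.3% after median ratio scaling. Of 11 tested genes for proteins that bind or assemble proteasomes, 3 were called higher, among them Fbxo7 (0.62), which binds Psmf1, and 6 lower, among them the deubiquitinase Uchl5 (-0.73). After median ratio scaling 5 were called higher and 1 lower. Pomp, the maturation factor of the core, was not called (0.17). Of 8 genes in the control of subunit transcription, 3 were higher (Mafk 1.28, Keap1 0.96) and 4 lower (Mafg -0.65, Nfe2l2 -0.52), with 3 higher and 0 lower after median ratio scaling.

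Of 6 tested peptidases that trim proteasome products, 2 were higher (Lap3 1.02, Erap1 0.40) and 2 lower (Thop1 -0.96, Tpp2 -0.64). After median ratio scaling 4 were higher and 1 lower (all genes: 18.1% and 62.1%, or 30.8% and 30.3% after that scaling). The medians were -0.38 for the bound and assembly proteins, -0.32 for transcription control and -0.11 for peptidases, against -0.44 for all genes.

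Between BAFF KO and WT under LPS, 2 genes of these lists were called lower and 2 higher, of 11 bound or assembly proteins, 8 in transcription control and 6 peptidases, beside the shares of 4.35% and 3.99% among all genes. They were Maff (-1.01, adjusted p = 0.017), a small partner of Nfe2l1 and Nfe2l2, and Zfand5 (-0.46, adjusted p = 0.021), a proteasome activator, both lower in BAFF KO. Keap1, which marks Nfe2l2 for degradation (0.50, adjusted p = 0.044), and the peptide-trimming Erap1 (0.36, adjusted p = 0.045) were higher.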

How the data were processed

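RNA was sequenced from bone-marrow-derived macrophages as single reads of 85 bp, per the labels' protocols. The submitters' processing notes name STAR and mm10. How reads were counted, with which annotation, filter or strand setting, is not given in the sources used here. RPKM values were deposited by the authors for 11164 genes in 18 columns. GENCODE M21 gave symbols to 11084 gene IDs and none to 80. Whole reads could be recovered from the deposited RPKM (100% within 0.01 reads).

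The 2 columns of each library number were averaged, giving 9 libraries in 6 groups. Genes whose mean reached 1 RPKM in any group were kept, and log2(RPKM + 1) was fitted on group means with limma 3.58.1 in R 4.3.3 (3 residual degrees of freedom, eBayes with a trend, 2-sided). P-values were adjusted by Benjamini-Hochberg over 9934 genes, with a threshold of 0.05. The fit was checked on simulated data. The 9 tested comparisons were LPS averaged over genotypes and in each genotype, the knockouts against WT and each other under LPS, and each knockout's LPS response minus that of WT. The alternatives tried were median ratio scaling, quantile normalization, a pseudocount of 0.1, no filter, single columns, a replicate block, each library left out and a fold of at least 1.5. Chosen after seeing the data was limma voom on the recovered reads, which called 1815 genes higher and 6251 lower in the averaged test.

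The proteasome genes and the lists were chosen with earlier results of these data known. All 43 are described by role, with library values for the 4 largest called rises and falls with LPS, the genes called in a knockout comparison (or with the smallest p), the catalytic subunits, the activators, the inhibitor and the core chaperones. Others with library values were chosen after their values were seen. The lists of ubiquitin genes and of shuttle proteins are not reported here.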

Additional observations from a re-analysis of the deposited data

How the results depend on the processing

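The number of proteasome genes called with LPS depended mainly on scaling. Median ratio scaling gave 24 higher and 4 lower in the averaged test, 25 and 1 in WT, 15 and 7 in BAFF KO, 21 and 1 in APRIL KO, and 0 higher between BAFF KO and APRIL KO. Under it these averaged changes had a positive sign: Psmc2 0.27, Psmc3 0.20, Psmc4 0.34, Psmc5 0.10, Psmc6 0.26, Psmd12 0.13, Psmd13 0.034, Psmd2 0.028, Psmd3 0.15, Psmd4 0.30, Psmd8 0.36, Psma7 0.15, Psmb1 0.22, Psmb2 0.49, Psmb3 0.066, Psmb5 0.025, Psmg3 0.071, Psme3 0.11 and Psmf1 0.33. That scaling sets the typical gene equal between libraries, which by construction raises LPS values. Quantile normalization turned Psmd14 (-0.013), Psmd6 (-0.0050), Psmd7 (-0.059), Psmb4 (-0.11), Psmg3 (0.13), Psmf1 (0.36) and Psma6 in BAFF KO (-0.016). The sign of Psmd7 also turned with the lower index column alone (-0.013) and without library 15 (-0.0018 to 0.090 over the libraries left out), and that of Psmb2 with the higher index column alone (0.060), without library 14 or 16 (-0.093 to 0.064 over the libraries left out) and by voom (0.0055). The cause was not tested.

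A fold of at least 1.5 left 6 genes higher and 6 lower in the averaged test, and 5 lower in WT, 12 in BAFF KO and 6 in APRIL KO. It left 1 lower between BAFF KO and WT and 0 higher between BAFF KO and APRIL KO. The counts over all genes at that fold are not given here. The lower index column alone gave 6 lower in WT, 14 lower in BAFF KO, 1 lower between BAFF KO and WT and 0 higher between the knockouts. Among all 10006 genes tested with that column the counts were 3055, 2826, 141 and 65 in the same order. The 18 columns as separate samples count each library as 2. They gave 22 lower in APRIL KO (all genes: 5535 of 9934) and 1 higher and 14 lower for BAFF KO against WT (1444 and 1262). For APRIL KO against WT they gave 17 lower (604), and between the knockouts 6 higher (910). For the BAFF KO response against that of WT they gave 1 higher and 14 lower (1454 and 739). Without a filter 0 were higher between the knockouts (170 among all 11164 genes), and voom called 4 lower for the BAFF KO response (155 lower among all genes).

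Leaving out 1 library gave 11 to 12 higher and 20 to 24 lower in the averaged test, 9 to 12 and 7 to 13 in WT, 5 to 7 and 16 to 22 in BAFF KO, and 8 to 11 and 9 to 12 in APRIL KO. It gave 0 to 1 higher and 1 to 2 lower for BAFF KO against WT, and 0 to 1 higher and 1 lower between the knockouts. For APRIL KO against WT and for both response differences it gave 0. Counts over all genes are not given here for these fits. Without library 16 the averaged median of the 43 genes was -0.16.

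Deviations of same-numbered libraries correlated at -0.18 between WT and BAFF KO, -0.10 between WT and APRIL KO and 0.12 between the knockouts. No strong shared deviation was thus seen, and the main fit did not pair libraries. Such values cannot show whether same-numbered libraries were prepared together. With the replicate block 7 genes were lower in WT (all genes: 4225 of 9934) and 0 higher between BAFF KO and APRIL KO (181).

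Each genotype had 1 unstimulated library, so its spread was assumed to be that of the LPS libraries, and the fit had 3 residual degrees of freedom. Genes of few reads (Psmc3ip with 6 to 32, Psmg3 with 21 to 51 and Psmg1 with 41 to 162 per library) carry counting error as well. RPKM cannot tell a lower amount of RNA from a larger share of other genes.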
